A study of Mus musculus with 10 samples.

Results

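Among the 56691 genes of the deposited table, 61 were at least 1 FPKM (fragments scaled by transcript length and library size, made by the authors) in each of 8 mouse medial habenula libraries and no more than 20% of that lowest value in 2 others, withdrawal 2 and control 2. Genes of the nicotinic, potassium channel, Irx and 7 other name families and 10 single genes such as Chat and Pou4f1 were left out by name; 77 genes met the FPKM condition, and 16 of these were left out. The genes were thus selected on these FPKM values, so the gap between the 8 libraries and the other 2 is a description and not a test result. The study asks how the medial habenula transcriptome differs in nicotine withdrawal. The withdrawal group comprised 6 wild-type mice injected intraperitoneally with nicotine ditartrate (4 mg/kg, 2 injections a day) over 14 days and switched to saline from day 15. The control group comprised 4 wild-type mice injected with saline, and tissue of both groups was taken on day 17. Strain, sex and age are left unstated, as the sources used here do not record them. The sample labels name sorted cholinergic neurons, while the series record names medial habenula tissue.

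The medial habenula is a small epithalamic nucleus that sends its axons through the fasciculus retroflexus to the interpeduncular nucleus. Its neurons release acetylcholine, glutamate and tachykinin peptides, carry a high density of nicotinic receptors, and are known for their part in the aversive side of nicotine use and withdrawal. It borders the lateral habenula and the thalamus, so a dissected sample can hold both. In these bulk libraries fewer cells of a type and less RNA per cell cannot be told apart.

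Library totals lay between 15023448 and 22026333 counts, and the 61 genes took between 0.426% and 0.611% of the counts in the 8 libraries but 0.0279% in withdrawal 2 and 0.0196% in control 2. Both marker genes of the habenula, Gpr151 and Nwd2, were members. Oligodendrocyte markers (5 of 5 listed genes detected) summed to between 882 and 2082 FPKM over the 10 libraries, so no library was free of glial transcripts. Choroid plexus and ependyma markers (5 of 5 detected) were lowest in control 2 and highest in withdrawal 2, at 20.8 and 9970.0 FPKM. In control 2 Ttr held 18.76 FPKM of the sum, and Foxj1, Ccdc153, Folr1 and Aqp1 were at 1.64, 0.18, 0.1 and 0.09 FPKM. Hippocampal and cortical neuron markers (8 of 8 detected) summed to 158 FPKM in withdrawal 2 and 600 FPKM in control 2, against 73.1 to 91.8 FPKM in the other 5 withdrawal libraries and 124 to 248 FPKM in the other 3 controls. GABAergic neuron markers (8 of 8 detected) summed to 245 FPKM in withdrawal 2 and 293 FPKM in control 2, against 20.6 to 64.6 FPKM in the other withdrawal libraries and 46.9 to 104 FPKM in the other controls. Blood markers (4 of 4 detected) summed to 757 FPKM in withdrawal 2, against 30.6 to 217 FPKM in the other 9 libraries. All comparisons of withdrawal with control below use the 8 libraries (5 withdrawal, 3 control). The result over all 10 is given apart, since the summed level of 10 habenula genes outside the set was low in withdrawal 2 and control 2. These genes summed to 29.0 FPKM in withdrawal 2 and 26.9 FPKM in control 2. The other 5 withdrawal libraries held 280 to 371 FPKM and the other 3 controls 248.8 to 332 FPKM. Of these 10 genes, Chat, Slc18a3, Slc5a7, Tac2 and Pou4f1 met the FPKM condition themselves and were left out by name only. Their low level there is thus not independent of the choice of genes. Etv1, Nr4a2, Slc10a4, Slc17a6 and Tac1 did not meet the condition. Slc10a4 was not low in withdrawal 2, where it had its highest level of the 10 libraries (3.35 FPKM). Slc17a6 held 15.7 FPKM of the sum in withdrawal 2, and Nr4a2 15.8 FPKM in control 2. Whether the tissue of both libraries differed from its label was not tested.

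**Figure D1:**
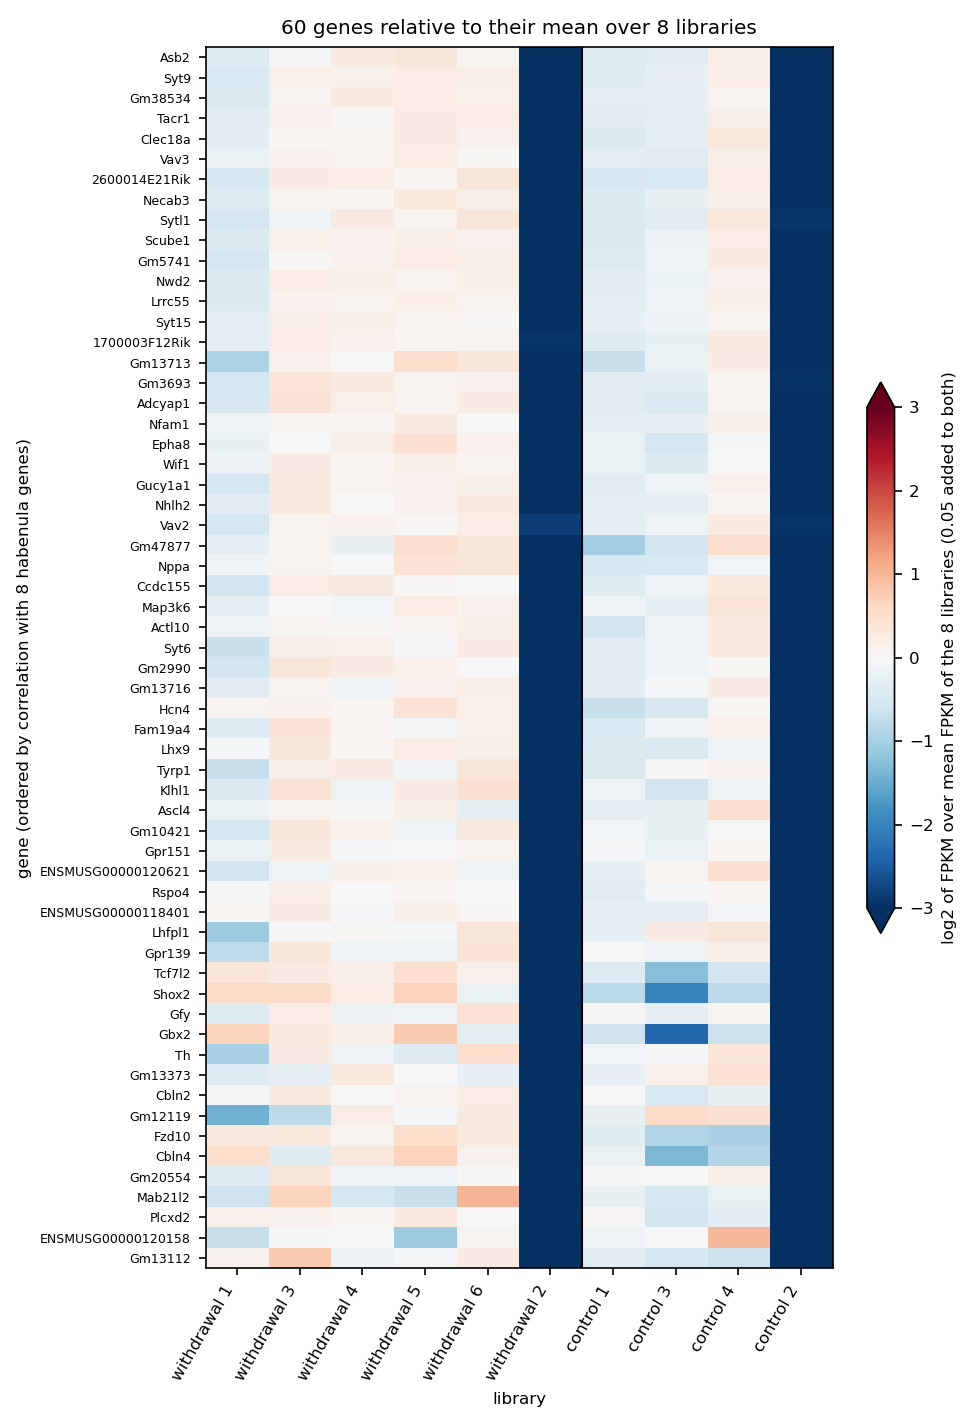
Level of 60 of the 61 genes (rows) in each library (columns, withdrawal left of control), as the log2 of FPKM over the gene's mean in the 8 libraries, with 0.05 FPKM added to both. Rows run from the highest correlation with 8 left-out habenula genes at the top to the lowest at the bottom; withdrawal 2 and control 2 are dark in every row because the genes were chosen so, and Shox2, Gbx2 and Cbln4 are bluest among the compared libraries in control 3.

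Of the 61 genes, 46 were protein-coding in GENCODE M21, 7 were antisense, 4 were long intergenic RNAs, 1 was a processed transcript, and 3 identifiers were not in that release. Mean FPKM over the 8 libraries ran from 1.51 to 108, with a median of 8.69; 13 genes had at least 30 FPKM and 22 had under 5. In 4 genes, all without a gene-specific name, no read was counted in withdrawal 2 or control 2, where 3 counts is the limit that a count of 0 allows. The lowest of the 8 libraries exceeded the higher of the 2 by a factor of 5.03 to 121, largest for Gpr151, among the 57 genes above 0.

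Gpr151, an orphan G protein-coupled receptor of habenular axons, was the most abundant of the 61 genes. It had 93.5, 129, 106, 106 and 117 FPKM in withdrawal 1, 3, 4, 5 and 6, against 104, 94 and 112 FPKM in control 1, 3 and 4. Withdrawal 2 held 12 counts (0.33 FPKM) and control 2 held 30 counts (0.77 FPKM). The groups overlapped, with control 3 and withdrawal 1 lowest, and the log2 change in withdrawal was 0.068 (SE 0.0917; adjusted p = 0.657 by edgeR).

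Nwd2, which encodes a protein with a NACHT domain and WD repeats, had 49, 77.5, 75.5, 71.4 and 75.1 FPKM in the 5 withdrawal libraries, against 52.6, 57.5 and 72.8 FPKM in the 3 controls. Its log2 change was 0.17 (SE 0.149; adjusted p = 0.476 by edgeR). Withdrawal 1, control 1 and control 3 were low and the other 5 libraries were high, whichever the group. The same split appeared in Lrrc55, an auxiliary subunit of large-conductance potassium channels, with 78.5, 114, 112, 119 and 112 FPKM in withdrawal, against 84.5, 94.2 and 119 FPKM in control. It appeared again in Syt9, a vesicle calcium sensor of the synaptotagmin family, with 72.5, 109.9, 111, 115 and 114 FPKM in withdrawal, against 76.5, 83.3 and 114 FPKM in control. The lowest of the 8 libraries was counted as a description only, without the share over all tested genes. It was withdrawal 1 (31 genes), control 1 (14) or control 3 (12) for 57 of the 61 genes.

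This order followed the level of habenula genes outside the set. Of the 10 such genes listed, Slc17a6, the vesicular glutamate transporter that lateral habenula and thalamus also express, passed as higher in withdrawal, with a log2 change of 0.77 (adjusted p = 0.0216 by edgeR), and 9 did not pass, Chat and Tac2 among them with 0.24 and 0.095 (adjusted p = 0.293 and 0.750 by edgeR). The mean log2 CPM (counts scaled to library size) of Chat, Slc18a3, Slc5a7, Slc10a4, Tac1, Tac2, Pou4f1 and Etv1 was 5.42 in withdrawal 1 and 5.67 to 5.82 in the other 4 withdrawal libraries, against 5.39, 5.42 and 5.78 in control 1, 3 and 4. As a description over 8 mice of both groups, whose libraries each share 1 dissection and 1 depth across all genes, Pearson's r with this mean was at least 0.8 for 26 of the 61 genes, against 1.57% of the 14993 tested genes. It was 0.96 for Syt9, 0.91 for Nwd2 and 0.57 for Gpr151, whose levels varied least. Of the genes in this mean, Chat, Slc18a3, Slc5a7, Tac2 and Pou4f1 met the same FPKM condition as the 61 genes. The likeness of the set to this mean is thus not independent of the choice of genes. Slc10a4 itself was low in the 8 libraries (0.71 to 2.62 FPKM) and highest in withdrawal 2 (3.35 FPKM). Without it the mean was 5.83 in withdrawal 1 and 6.38 to 6.43 in the other 4 withdrawal libraries, against 5.98, 6.08 and 6.42 in the controls, and 28 genes reached 0.8 (1.69% of all tested genes).

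Promoters were read from RefSeq (GRCm38.p6) for 49 of the 61 genes, as 250 bases before to 50 after the listed start. The E-box CAGCTG, a palindrome bound by basic helix-loop-helix factors such as the Nhlh family, was found in 15 of 49 windows (30.6%), against 16.1% of 27025 promoters. The homeodomain motif ATAATTAAT, associated with Pou4f1, was found in 1 of 49, that of Ascl4, named for this match (2.04%, against 0.266%), and the TCF/LEF motif CTTTGAT in 0 of 49 (against 3.72%), both strands being searched. Median GC content was 58% in the set and 52.7% in all promoters, and a match here is a match of letters only. The 250 bases before the start are shown for 4 of the 15 genes with the E-box, 2 that followed the habenula genes closely (Tacr1, r = 0.95, and Nppa, r = 0.81) and 2 that did so less (Gbx2, r = 0.41, and Fzd10, r = 0.31), with the E-box in capitals.
Tacr1, chr6:82402225-82402474, plus strand: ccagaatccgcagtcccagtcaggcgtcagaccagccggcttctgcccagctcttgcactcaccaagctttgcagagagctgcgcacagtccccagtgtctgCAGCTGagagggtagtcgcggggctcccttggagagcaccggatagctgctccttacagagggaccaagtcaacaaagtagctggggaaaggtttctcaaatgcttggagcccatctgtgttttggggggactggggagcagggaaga
Nppa, chr4:148000472-148000721, plus strand: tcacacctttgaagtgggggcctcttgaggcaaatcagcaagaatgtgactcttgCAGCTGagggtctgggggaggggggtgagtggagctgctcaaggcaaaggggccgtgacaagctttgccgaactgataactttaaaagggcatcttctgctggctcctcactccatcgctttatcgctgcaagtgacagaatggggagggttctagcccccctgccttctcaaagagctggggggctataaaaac
Gbx2, chr1:89931177-89931426, minus strand: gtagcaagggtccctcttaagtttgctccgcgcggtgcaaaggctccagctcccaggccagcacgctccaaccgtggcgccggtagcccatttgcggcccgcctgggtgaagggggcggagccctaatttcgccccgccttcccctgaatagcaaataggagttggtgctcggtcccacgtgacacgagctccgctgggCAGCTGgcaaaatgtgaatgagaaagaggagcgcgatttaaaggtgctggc
Fzd10, chr5:128600856-128601105, plus strand: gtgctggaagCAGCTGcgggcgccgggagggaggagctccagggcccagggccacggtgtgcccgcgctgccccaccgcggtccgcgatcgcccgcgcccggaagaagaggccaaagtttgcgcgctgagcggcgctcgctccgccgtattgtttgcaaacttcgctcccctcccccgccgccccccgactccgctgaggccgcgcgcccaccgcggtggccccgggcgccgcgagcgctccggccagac

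Receptors and channels of the set mostly overlapped between the groups. Tacr1, the receptor for substance P, had 5.99, 8.19, 7.69, 8.88 and 8.78 FPKM in withdrawal, against 5.92, 6.22 and 8.43 FPKM in control, and 0.4 FPKM in withdrawal 2 and 0.17 FPKM in control 2. The groups overlapped, with a log2 change of 0.18 (SE 0.143; adjusted p = 0.423 by edgeR). Gpr139, an orphan receptor enriched in the habenula, had 5.71, 12.2, 8.86, 8.88 and 12.6 FPKM in withdrawal, against 9.66, 8.72 and 11 FPKM in control, so withdrawal libraries held both the lowest and the highest value. Its log2 change was -0.043 (SE 0.212; adjusted p = 0.913 by edgeR). Hcn4, a pacemaker channel, had 8.57, 8.69, 8.34, 10.6 and 8.83 FPKM in withdrawal, against 4.94, 5.72 and 8.17 FPKM in control. All 5 withdrawal libraries lay above all 3 controls, although the log2 change of 0.50 (SE 0.150; adjusted p = 0.0556 by edgeR) missed the threshold of 0.05.

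Peptide and secreted-protein genes overlapped between the groups. Adcyap1, the precursor of the neuropeptide PACAP, averaged 21.7 ± 4.41 FPKM in withdrawal and 17.4 ± 3.32 FPKM in control (SD, n = 5 and 3), a log2 change of 0.29 (SE 0.172; adjusted p = 0.284 by edgeR). Nppa, which encodes atrial natriuretic peptide, had 9.02, 10.4, 9.67, 12.9 and 12.4 FPKM in withdrawal, against 6.93, 7.08 and 9.24 FPKM in control, and only control 4 reached into the withdrawal range. Its log2 change was 0.46 (SE 0.160; adjusted p = 0.0828 by edgeR). Cbln2, a secreted synapse organiser that binds neurexins, had 59.5, 75, 60, 65.7 and 70.8 FPKM in withdrawal, against 60.3, 44.5 and 51.9 FPKM in control. Withdrawal 1 and 4 lay below control 1, and the log2 change was 0.32 (SE 0.0997; adjusted p = 0.0616 by edgeR). Scube1, a secreted and cell-surface glycoprotein, had a log2 change of 0.14 (SE 0.160; adjusted p = 0.606 by edgeR).

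Several members act in calcium-dependent secretion or its signalling. The synaptotagmins Syt6 and Syt15 averaged 39.02 ± 8.68 and 8.08 ± 1.05 FPKM in withdrawal (SD, n = 5), against 37.9 ± 8.60 and 7.26 ± 0.994 FPKM in control (SD, n = 3). Their log2 changes were 0.016 and 0.13 (adjusted p = 0.967 and 0.493 by edgeR). Necab3, a calcium-binding EF-hand protein, had a log2 change of 0.18 (SE 0.154; adjusted p = 0.459 by edgeR). Gucy1a1, the alpha subunit of the nitric oxide receptor guanylate cyclase, averaged 36.3 ± 6.89 FPKM in withdrawal and 32.9 ± 5.55 FPKM in control (SD, n = 5 and 3), with a log2 change of 0.12 (SE 0.161; adjusted p = 0.660 by edgeR). Vav2 and Vav3, guanine nucleotide exchange factors, had log2 changes of 0.019 and 0.16 (adjusted p = 0.952 and 0.388 by edgeR). Clec18a, a C-type lectin, and the melanosome protein gene Tyrp1 had 0.12 and 0.073 (adjusted p = 0.675 and 0.850 by edgeR).

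Of the 61 genes, 6 were higher in withdrawal at an edgeR adjusted p under 0.05 and 0 were lower; among all 14993 genes tested 6.24% were called higher and 7.47% lower, and the 9.84% of the set called higher lies near the first of these shares. At an unadjusted p under 0.05 there were 14 genes, against 30.7% of all genes. The 6 were Shox2, Gbx2, Tcf7l2, Cbln4, Lhx9 and Fzd10. Of these, 4 encode transcription factors and 5 did not overlap between the groups. The groups did not overlap, higher in withdrawal, in 7 of the 61 genes, against 11.3% of all genes, and in the other direction in 0, against 11.9%.

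Shox2, a homeobox transcription factor of the developing thalamus, had 22.1, 21.8, 17.4, 23.9 and 12.9 FPKM in the 5 withdrawal libraries, against 8.54, 3.68 and 8.64 FPKM in the 3 controls. All withdrawal values lay above all control values. It was at 0.12 FPKM in withdrawal 2 and 0.08 FPKM in control 2. The log2 change was 1.48 (SE 0.287; adjusted p = 0.0123 by edgeR).

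Gbx2, a homeobox gene required for thalamic development, had 17.8, 13.5, 12.8, 19.1 and 9.05 FPKM in withdrawal, against 7.15, 2.12 and 7.08 FPKM in control. Control 3 was lowest, and the log2 change was 1.39 (SE 0.371; adjusted p = 0.0371 by edgeR). Leaving out any library except withdrawal 6 ended this call, with edgeR adjusted p between 0.0544 and 0.0813.

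Tcf7l2, the Wnt effector that maintains thalamic and habenular neuron identity, had 47.5, 43.2, 42.3, 51.8 and 40.8 FPKM in withdrawal, against 28.1, 15.1 and 24.7 FPKM in control. The groups were well apart, with a log2 change of 0.98 (SE 0.173; adjusted p = 0.00902 by edgeR). Fzd10, a Wnt receptor, had 2.92, 2.98, 2.55, 3.48 and 2.96 FPKM in withdrawal, against 1.84, 1.27 and 1.2 FPKM in control, a log2 change of 1.04 (SE 0.171; adjusted p = 0.00737 by edgeR). Other Wnt pathway genes in the set did not pass. Wif1, a secreted Wnt inhibitor, averaged 9.32 ± 1.04 FPKM in withdrawal and 7.64 ± 1.15 FPKM in control (SD, n = 5 and 3), a log2 change of 0.26 (SE 0.116; adjusted p = 0.157 by edgeR). Rspo4, a secreted Wnt enhancer, averaged 2.56 ± 0.181 FPKM in withdrawal and 2.34 ± 0.336 FPKM in control (SD, n = 5 and 3), with a log2 change of 0.11 (SE 0.135; adjusted p = 0.629 by edgeR).

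Cbln4, a synapse organiser related to Cbln2, had 60.6, 32.8, 52.3, 68.5 and 46.2 FPKM in withdrawal, against 36.6, 16.6 and 22.7 FPKM in control. Withdrawal 3 lay below control 1, so the groups overlapped, and the log2 change was 1.03 (SE 0.282; adjusted p = 0.0410 by edgeR). The call was lost without withdrawal 1, 4 or 5 or control 3 or 4 (edgeR adjusted p between 0.0707 and 0.143). Lhx9, a LIM homeobox factor, had 18, 23.7, 19.5, 21.8 and 20.9 FPKM in withdrawal, against 14, 13.8 and 17.1 FPKM in control, with a log2 change of 0.45 (SE 0.0946; adjusted p = 0.0160 by edgeR). It was lost without control 1 or control 3 (edgeR adjusted p = 0.0535 and 0.0657). Shox2, Tcf7l2 and Fzd10 were called without any single library.

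**Figure D2:**
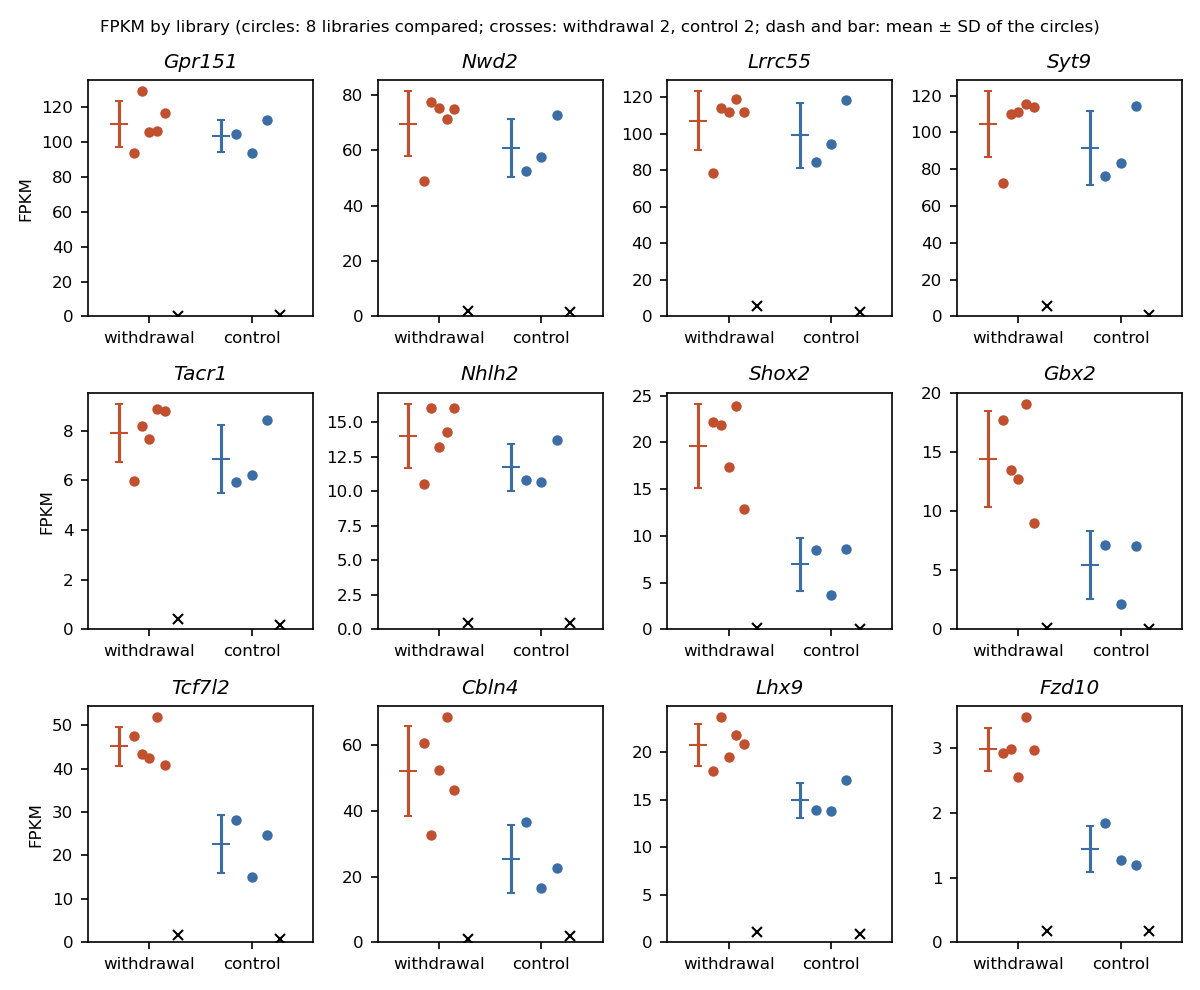
FPKM of 12 genes in every library, withdrawal left of control. Circles are the 8 libraries compared, crosses withdrawal 2 and control 2, and the dash with its bar is the mean ± SD of the circles; Gpr151, Nwd2, Lrrc55, Syt9, Tacr1 and Nhlh2 overlap between the groups, while all withdrawal circles of Shox2, Gbx2, Tcf7l2, Lhx9 and Fzd10 lie above the control circles.

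Markers of the lateral habenula and thalamus were measured beside these 6 genes. All 9 listed markers were detected, and their summed level lay between 436 and 588 FPKM in the 5 withdrawal libraries, against 331 to 387 FPKM in the 3 controls, and none was at 0 in any of the 8. The mean log2 CPM of the list overlapped, at 5.92 to 7.09 in withdrawal, against 5.70 to 6.32 in control, with withdrawal 6 lowest of its group; Shox2 and Gbx2 were also lowest of their group there. Of the 9 markers, Gap43, a growth cone protein, passed on its own, with a log2 change of 1.01 (adjusted p = 0.00873 by edgeR), and the other 8 did not. Without Gap43, a choice made after the data were seen, the sums overlapped, at 294 to 407 FPKM in withdrawal, against 254 to 310 FPKM in control. Prkcd, a protein kinase C, was lowest of the 8 libraries in withdrawal 6, at 4.4 FPKM. Over the 8 libraries, Pearson's r with the mean log2 CPM of this list was 0.88 for Gbx2, 0.87 for Shox2, 0.79 for Tcf7l2, 0.71 for Cbln4, 0.65 for Fzd10 and 0.65 for Lhx9. With the 8 habenula genes it was 0.41, 0.43, 0.44, 0.29, 0.31 and 0.70 in the same order. In 10 of the 61 genes the value was higher with the thalamic list, among them 5 of the 6, and in 11 without Slc10a4 in the habenula mean, with Lhx9 then among them (0.62 with the habenula genes). These r values pool both groups, and the 6 genes were picked as higher in withdrawal, so a difference between the groups is part of r. With the mean of the thalamic list as a covariate, a model added after the data were seen, 0 of the 61 genes were called, against 0.12% of all genes called higher and 0.627% called lower. The log2 changes of the 6 were then 0.40 (Lhx9) to 0.97 (Fzd10), with edgeR adjusted p from 0.0921 to 0.335. In this fit 8 of the 61 had an unadjusted edgeR p under 0.05, against 2391 of the 14993 tested genes.

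Other cell markers also differed between the groups of 8 libraries. Oligodendrocyte markers summed to between 882 and 1482 FPKM in withdrawal, against 1613 to 1843 FPKM in control, and astrocyte markers (5 of 5 detected) to 197 to 245 FPKM in withdrawal, against 277 to 290 FPKM in control. The hippocampal and cortical sums likewise did not overlap, as given above. Within the astrocyte list, Gfap had 54.4 to 83.0 FPKM in withdrawal, against 113 to 129 FPKM in control. Aldh1l1 had 9.1 to 10.4 FPKM, against 10.6 to 11.7 FPKM, while Aqp4, Slc1a3 and Gja1 overlapped between the groups. The part of these cell markers in the changes was not tested.

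**Figure D3:**
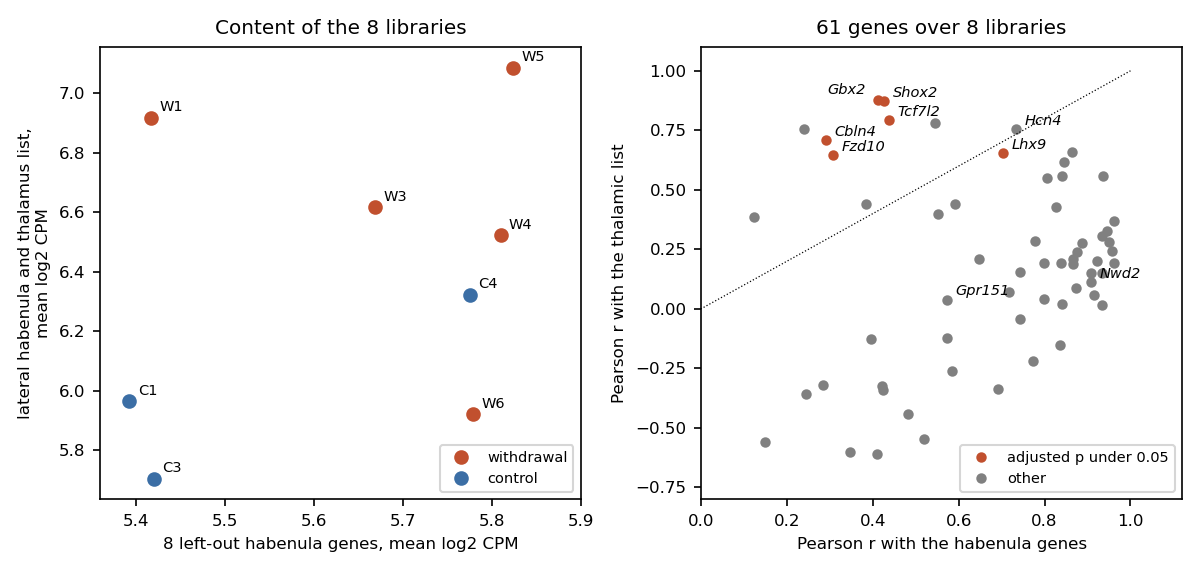
Left, mean log2 CPM of the 8 left-out habenula genes (x axis) against that of the 9 lateral habenula and thalamus markers (y axis) in each of the 8 libraries, withdrawal (W) and control (C) with their replicate numbers. Right, Pearson's r of each of the 61 genes with both means over these libraries; 5 of the 6 genes called higher in withdrawal lie above the dotted line of equal r and Lhx9 just below it (above it without Slc10a4 in the x axis mean), while Nwd2 lies at 0.91 on the x axis and 0.11 on the y axis.

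The remaining 55 genes did not pass, with edgeR adjusted p of 0.0556 or more. Their log2 changes ran from -0.71 to 0.72, and from -0.26 to 0.50 among those with a gene-specific name. Over the 61 genes the median log2 change was 0.16, against 0.0076 over all tested genes, and 50 of 61 were above 0, against 51.4% of all genes. Without control 1 the median of the 61 was 0.058, with 36 above 0, and without control 4 it was 0.33, with 54 above 0; without withdrawal 1 it was 0.25. The standard error of a single gene's log2 change lay between 0.0917 and 0.418. With the 8 habenula genes as a covariate the median was -0.022 and 24 of the 61 genes were above 0. Past the threshold stayed 4 genes (Shox2, Tcf7l2, Lhx9 and Fzd10), against 3.58% of all genes called higher and 3.84% called lower. This covariate holds genes that met the FPKM condition themselves, so it is not independent of the set. Without Slc10a4 in the covariate the median was 0.039, 39 of 61 genes were above 0 and 5 were called, Cbln4 with them (adjusted p = 0.0440 by edgeR), against 5.56% of all genes called higher and 5.88% called lower. DESeq2 called 11 of the 61 higher and 0 lower, against 9.32% and 10.1% of all genes. With all 10 libraries the median was 0.31 and 0 of the 61 were called, against 0.0333% of all genes called higher and 0.167% called lower. At an unadjusted p under 0.05 edgeR called 0 of the 61, against 2295 of the 14993 tested genes. This fit holds the 2 libraries that the choice of genes used.

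**Figure D4:**
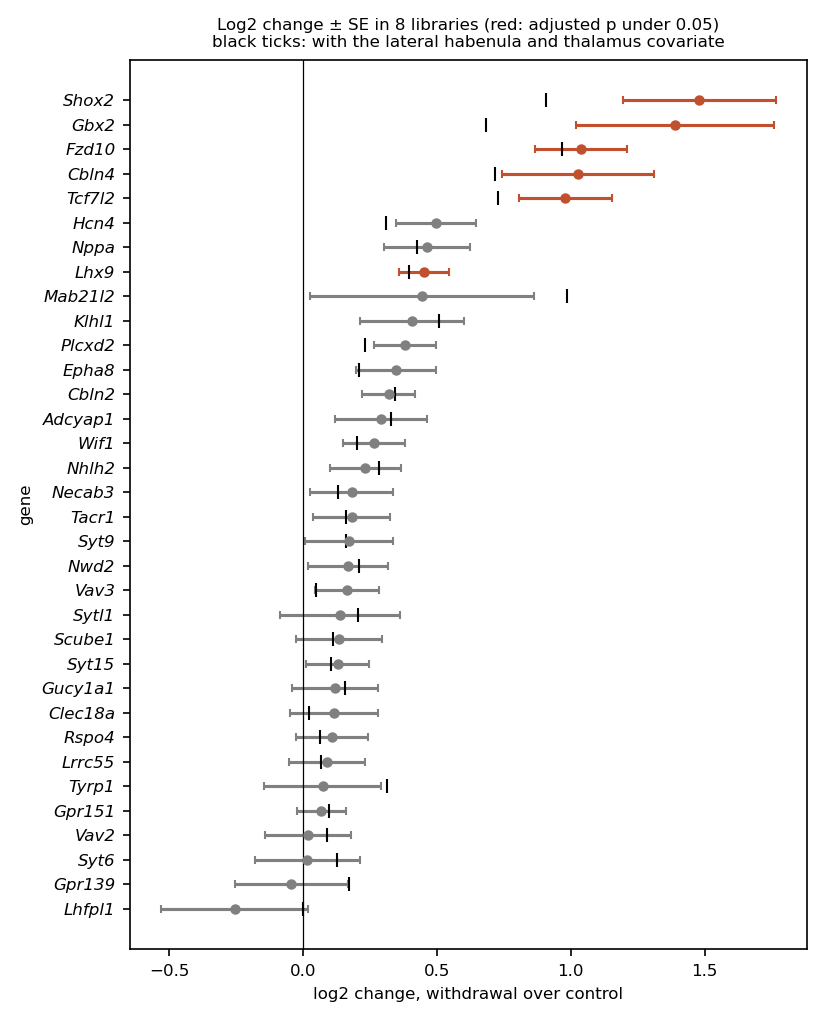
Log2 change in withdrawal over control for the 34 genes named by rule, from the count model over 8 libraries, as point and SE, with the genes past an adjusted p of 0.05 in red. Black ticks give the log2 change once the lateral habenula and thalamus list is a covariate; the ticks of Shox2 (0.91) and Gbx2 (0.68) lie furthest left of their points.

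Further developmental and neuronal genes of the set did not pass the threshold. Nhlh2, a basic helix-loop-helix factor of neurons, had 10.5, 16.1, 13.2, 14.3 and 16 FPKM in withdrawal, against 10.8, 10.7 and 13.7 FPKM in control. The groups overlapped, with a log2 change of 0.23 (SE 0.133; adjusted p = 0.268 by edgeR). Mab21l2, a developmental gene of the MAB21 family, ranged widely, from 1.16 to 3.91 FPKM in withdrawal, against 1.31 to 1.67 FPKM in control, with a log2 change of 0.45 (SE 0.418; adjusted p = 0.506 by edgeR). Klhl1, an actin-binding kelch protein, and Epha8, an ephrin receptor, had log2 changes of 0.41 and 0.35 (adjusted p = 0.187 and 0.149 by edgeR). Th, the rate-limiting enzyme of dopamine synthesis named after its values were seen, averaged 2.41 ± 0.920 FPKM in withdrawal and 2.70 ± 0.50 FPKM in control (SD, n = 5 and 3), with a log2 change of -0.20 (SE 0.287; adjusted p = 0.685 by edgeR). Plcxd2, a phospholipase-like protein, averaged 28.4 ± 2.22 FPKM in withdrawal and 21.5 ± 4.35 FPKM in control (SD, n = 5 and 3), with a log2 change of 0.38 (SE 0.116; adjusted p = 0.0574 by edgeR). Lhfpl1, a tetraspan membrane protein, averaged 2.34 ± 0.732 FPKM in withdrawal and 2.73 ± 0.620 FPKM in control (SD, n = 5 and 3), with a log2 change of -0.26 (SE 0.275; adjusted p = 0.569 by edgeR).

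Several members lay on opposite strands of one locus, as annotated in GENCODE M21, and were named for this after their values were seen. Gm13713 and Gm13716 overlapped Lrrc55, 1700003F12Rik and Actl10 overlapped Necab3, and Gm2990 overlapped Chat. Gm47877 overlapped Chrnb4 and lay within 50000 bases of Chrna3, and Gm20554 lay within the same distance of Irx2. Because the strand setting of the counting was not given in the sources used here, reads of such partners could not be told apart. The same limit holds for other members overlapped on the opposite strand by genes outside the set, among them Nwd2, Shox2, Gbx2, Ascl4 and Mab21l2. For Nwd2, Shox2 and Gbx2 these were Gm9954, Rsrc1 and D130058E05Rik, with means of 7.59, 6.74 and 1.52 FPKM over the 8 libraries. Ascl4 (mean 2.56 FPKM) and Mab21l2 (1.915 FPKM) lay below their partners Rtcb (43.0 FPKM) and Lrba (2.40 FPKM). The antisense gene Gm13716 had 35, 45.8, 40.5, 48 and 50.3 FPKM in withdrawal, against 35.2, 42.2 and 51.2 FPKM in control. Its partner Lrrc55 was lowest in the same library of the 8, withdrawal 1. Map3k6 and Sytl1, a synaptotagmin-like protein gene with a log2 change of 0.14 (SE 0.224; adjusted p = 0.719 by edgeR), and Gfy and Ccdc155 were further neighbouring pairs within the set.

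At the edge of the rule, Vav2, Sytl1 and Gucy1a1 were the members closest to the 20% limit, at 19.9%, 17.2% and 16.8% of the lowest of the 8 libraries. Ror2, Tex15 and Cftr lay just outside, at 20.1%, 20.2% and 20.2%. On the 1 FPKM limit, Mab21l2, Lhfpl1 and Fzd10 were just inside at 1.16, 1.17 and 1.2 FPKM, and Slc38a8, Pmfbp1 and Aqp6 just outside at 0.89, 0.79 and 0.64 FPKM.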

How the data were processed

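Medial habenula RNA from 6 withdrawal and 4 control mice was sequenced. The deposited table gives read counts per gene and FPKM values for each library, which the authors made with cutadapt 1.9.1, HISAT2 2.2.1, HTSeq 0.6.1 and the mm39 build, per the submitters' processing notes; the sources used here give no strand setting or annotation. Libraries held 15023448 to 22026333 counts.

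The FPKM rule used the 10 libraries, and the members, gene lists and tests were chosen with earlier results of these data known. Counts of genes with a mean of at least 1 FPKM over the 8 compared libraries (14993 genes) were tested for withdrawal over control with edgeR 4.0.16 (R 4.3.3; TMM scaling, quasi-likelihood test, Benjamini-Hochberg over all genes tested, threshold 0.05). SE was the log2 change divided by the square root of F. Genes were named by a rule (Gpr151 and Nwd2, the highest mean FPKM, the largest ratios to withdrawal 2 and control 2, the called genes, the role lists and the genes at the rule's limits; predicted symbols are counted only), with exceptions stated. DESeq2 1.42.0, limma 3.58.1 on log2(FPKM + 1) and log2(FPKM + 0.1), other scalings and filters, covariates and left-out libraries were alternatives. Intervals and limits of a count of 0 cover counting error only. RefSeq promoters came from GRCm38.p6 and overlaps from GENCODE M21, matched by name or identifier, with no coordinates moved between builds. The result of 1 gene of the set is not reported here by name, though the counts over the set include it.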

Additional observations from a re-analysis of the deposited data

Results flagged for a closer look

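In 7 of 36 groups examined, 1 library lay far from the others of its group by Dixon's criterion. Chance meets this in about 1 group in 20 taken singly. However, 34 of the groups were named genes in the same 5 withdrawal libraries. Their flags are not independent, so the 7 cannot be set against that rate. In 5 of the 7 the library was withdrawal 1, the lowest of 5 withdrawal libraries. It held 49.04 FPKM of Nwd2, 78.52 FPKM of Lrrc55, 72.51 FPKM of Syt9, 32.66 FPKM of Scube1 and 24.41 FPKM of Gucy1a1. Withdrawal 1 was also the lowest of these 5 libraries in the mean of the 8 left-out habenula genes (5.42 log2 CPM, against 5.67 to 5.82 in the other 4), and was second highest in the mean of the lateral habenula and thalamus markers (6.92 log2 CPM). Hcn4, the pacemaker channel, was highest in withdrawal 5, at 10.62 FPKM. The 61 genes summed to 58.38 FPKM in withdrawal 2, against 1027.83 to 1404.24 FPKM in the other 5 withdrawal libraries, which follows from how the genes were chosen.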

How the results depend on the processing

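The set held 38 genes when the level allowed in withdrawal 2 and control 2 relative to the lowest of the 8 libraries was 10% in place of 20%, and 106 when it was 33.3%. Genes of the set called higher numbered 0 with all 10 libraries (30 genes called in all), 0 with the lateral habenula and thalamus covariate (112 genes in all) and 11 with DESeq2. Genes called in all were 1113 with the habenula covariate and 958 with the replicate block. Leaving out each library gave 3 to 7 genes of the set (3 without control 3) 844 to 2882 genes in all and medians of the set from 0.058 (without control 1) to 0.33 (without control 4); Shox2, Tcf7l2 and Fzd10 stayed past the threshold each time. With the replicate number as a block 4 genes of the set were called, without Gbx2 (edgeR adjusted p = 0.0509) and Lhx9 (0.0742), and Syt6, Tyrp1 and Vav2 turned to -0.072, -0.020 and -0.065. Correlations of deviations from the group means were 0.0116, -0.0280 and 0.00077 for numbers 1, 3 and 4. Of 6 libraries, 1 correlated best with its own number. So few libraries cannot settle whether equal numbers mark paired mice or a shared batch.

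With the habenula covariate the median log2 change of the set turned to -0.022, but without Slc10a4 in it (added after the data were seen) it was 0.039. Single values turned to -0.00075 (Gpr151), -0.041 (Nwd2), -0.11 (Lrrc55), -0.075 (Syt9), -0.036 (Necab3), -0.088 (Scube1), -0.26 (Syt6), -0.10 (Gucy1a1), -0.11 (Clec18a), -0.19 (Tyrp1), -0.015 (Tacr1), -0.018 (Syt15), -0.22 (Vav2) and -0.16 (Sytl1). Without Slc10a4 in the covariate 8 of these 14 were above 0 (0.0015 for Clec18a to 0.067 for Tacr1), and 6 stayed below, at -0.032 for Lrrc55, -0.16 for Syt6, -0.033 for Gucy1a1, -0.12 for Tyrp1, -0.13 for Vav2 and -0.020 for Sytl1. Gpr139 turned to 0.11 with all 10 libraries and to 0.17 with the thalamic covariate. Leaving out single libraries gave log2 changes of -0.020 to 0.36 for Clec18a, -0.15 to 0.094 for Gpr139, -0.016 to 0.23 for Lrrc55, -0.0032 to 0.19 for Rspo4, -0.0083 to 0.32 for Scube1, -0.12 to 0.19 for Syt6, -0.0072 to 0.41 for Sytl1, -0.083 to 0.21 for Tyrp1 and -0.089 to 0.18 for Vav2. None of these genes passed the threshold in the 8-library fit, and the cause of the turns was not tested. Over 34 named genes and 680 comparisons with alternatives, 590 kept direction and side of the threshold, 31 lost the call, 15 gained one and 44 changed sign. Counts in withdrawal 2 and control 2 (median 17 in each) limit the values there.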
